A study of Gallus gallus with 4 samples.

Results

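RAG1, TLR4 and SOCS2 are 3 immune genes of the chicken, and each was read from 1 probe. They were taken as the non-control probes whose identifier is the RefSeq mRNA accession of the gene, NM_001031188 for RAG1, NM_001030693 for TLR4 and NM_204540 for SOCS2. These are 3 of 42034 non-control probes and 3 of the 50 genes that could be given a RefSeq symbol. Probes under other kinds of identifier were not searched for these genes. Total RNA was measured in DT40, a chicken B lymphoma cell line of bursal origin, on 4 one-colour Agilent arrays that lay on 1 slide and were scanned once. The groups were untreated parental DT40, parental DT40 with 500 µM indole-3-acetic acid (IAA, the natural plant auxin) for 6 h, an untreated DT40 line stably expressing OsTIR1, and that OsTIR1 line with 500 µM IAA for 6 h. All 4 cultures were kept at 38.5 °C in DMEM supplemented with fetal calf serum (10%) and chicken serum (1%). The IAA was dissolved in ethanol, and the sources used here do not say whether the untreated cultures received ethanol.

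OsTIR1 is the auxin receptor F-box protein of rice, which plants use to mark repressors for degradation when auxin is bound. Its promoter and the number of clones behind the line are not stated in the sources used here. Each group was 1 culture on 1 array, so there was no replicate within a group, and 4 arrays set the limit on precision throughout. A model with line and IAA terms would leave 1 residual degree of freedom. It was not fitted for these genes, since none of their spots was significantly above background. The study asked whether auxin switches on particular genes in animal cells. For these 3 genes the question is whether any of them was measurable at all, and whether auxin or the plant receptor brought one above background.

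The genes stand for 3 branches of immunity. RAG1 is the catalytic subunit of the recombinase that, with RAG2, cuts DNA to assemble antibody and T cell receptor genes in developing lymphocytes. In birds this assembly takes place early in B cell life, and the bursal B cells then diversify their antibody genes by gene conversion, a process DT40 cells are known for. TLR4 is the Toll-like receptor for bacterial lipopolysaccharide, best known from macrophages, where it signals to NF-κB. SOCS2 belongs to the suppressors of cytokine signalling, which are switched on by JAK-STAT signalling and shut it down again, and in mammals SOCS2 is known for restraining growth hormone signalling.

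None of the 3 genes was well above background on any of the 4 arrays. The scanner software marks a spot as well above background when its signal is positive, significant against background and exceeds background by a set multiple of the background's spread. RAG1, TLR4 and SOCS2 met this on 0 of 4 arrays each, and all 12 spots also missed the weaker mark for a positive and significant signal. None of the 12 was saturated or flagged as an outlier. Of all 42034 non-control probes, 14177 missed the weaker mark in untreated parental DT40 and 14172 in parental cells given IAA. In the OsTIR1 line 9877 missed it untreated and 11746 with IAA. The share of all non-control probes marked well above background was 47.8% in untreated parental DT40, 49.9% in parental cells given IAA, 58.0% in the untreated OsTIR1 line and 55.4% in the IAA-treated OsTIR1 line. Probes marked on none of the 4 arrays, called dark below, made up 39.6% of all, so a dark probe was common on this platform. Dark means unmarked and not without signal. On each array fewer probes missed the weaker mark than the 16654 that were dark, so some dark probes passed it. In cultures measured in bulk, fewer cells that express a gene and less RNA per cell cannot be told apart. Of the other 47 named genes, 21 were dark on all 4 arrays and 22 were above background on all 4, as were 46.2% of all probes. Values are given below in the order untreated parental, IAA-treated parental, untreated OsTIR1 and IAA-treated OsTIR1 array where no order is named.

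The negative controls are spots of a hairpin sequence with no target, 153 per array, and they serve here as spots where no target is bound. Their median spot signal, the median of the pixels before any background is subtracted, was 39.0 intensity units in untreated parental DT40, 30.5 in parental cells given IAA, 25.5 in the untreated OsTIR1 line and 23.0 in the IAA-treated OsTIR1 line. Control spot signal was thus highest on the untreated parental array and lower on both OsTIR1 arrays, and every raw signal below has to be read against its own array. The local background around the same spots did not differ in this way, with medians of 17.5 on the untreated parental array and 18.0 on each other array. A few control spots were themselves marked well above background, 2 of 153 in untreated parental DT40 (1.31%, exact 95% binomial interval 0.159% to 4.64%) and 1 of 153 on each other array (0.654%, 0.0165% to 3.59%). They were 5 different spots, and none was marked on more than 1 array. The weaker mark was met by 6, 6, 2 and 4 of the 153 control spots. The controls ran dimmer than dark gene probes. After the software's background subtraction the control medians were -2.76, -2.64, -1.51 and -1.61, against -0.22, -0.34, 0.94 and 0.41 for dark probes. On the untreated OsTIR1 array the median dark probe exceeded the 95th percentile of the controls, 0.70. A high position among controls was thus usual there for a dark probe.

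RAG1 gave a spot signal of 39.0 intensity units in untreated parental DT40, 30.0 with IAA, 26.0 in the untreated OsTIR1 line and 24.0 in that line with IAA. Set against the negative controls of the same array these values lay 0.0, -0.5, 0.5 and 1.0 units from the control median. Of the 153 controls, 71 were dimmer than RAG1 and 10 tied with it in untreated parental DT40. With tied spots counted at 0.5, RAG1 stood above 49.7% of the controls there, 43.8% with IAA, and 58.5% and 65.7% on the untreated and treated OsTIR1 arrays. In raw spot signal RAG1 was thus near the middle of all 153 controls on every array. Among the 40 controls of its own section of the surface, divided into 4, it stood lower. There it was above 36.25% and 3.75% on the parental arrays, and above 22.5% and 47.5% on the OsTIR1 arrays.

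The software's background-subtracted signal, which also removes a trend over the array surface, placed RAG1 below zero on all 4 arrays. The values were -4.83 and -5.50 intensity units on the parental arrays, then -1.39 and -0.22 on the OsTIR1 arrays. On this scale 129 of 153 controls were brighter than RAG1 on the untreated parental array and 147 on the treated one, against 71 and 21 in the OsTIR1 line. Among the 16654 probes that were dark on every array, RAG1 stood above 9.11% and 1.16% on the parental arrays and above 12.5% and 37.5% on the OsTIR1 arrays. RAG1 was therefore below the median dark probe on all 4 arrays.

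TLR4 gave a spot signal of 36.5 intensity units in untreated parental DT40, 30.0 with IAA, 27.0 in the untreated OsTIR1 line and 26.0 with IAA. It stood above 26.1% and 43.8% of the negative controls on the parental arrays, and above 74.5% and 92.8% on the OsTIR1 arrays. The background-subtracted signal was -1.20 and -2.81 on the parental arrays and 0.75 and 0.10 on the OsTIR1 arrays. TLR4 was below zero in both parental cultures and marginally above it in both OsTIR1 cultures. In the untreated OsTIR1 line 7 of 153 controls were brighter on that scale, which put TLR4 just past the 95th percentile of the controls, 0.70, while its raw spot signal stayed under theirs, 28.5.

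Background was also compared within the TLR4 spot's own section of the surface, which was divided into 4. TLR4 stood above 53.9% and 80.3% of the 38 controls there on the parental arrays, and above 96.1% and 100% on the OsTIR1 arrays. Against the probes dark on every array TLR4 stayed below the median on all 4 arrays, above 39.9% and 16.1% on the parental arrays and above 46.6% and 44.1% on the OsTIR1 arrays. The position of TLR4 in the OsTIR1 arrays was thus high among control spots and ordinary among dark gene probes. Some of those dark probes passed the weaker mark, so they are not a set of probes without signal.

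SOCS2 gave a spot signal of 40.0 intensity units in untreated parental DT40, 30.0 with IAA, 28.0 in the untreated OsTIR1 line and 25.5 with IAA. It stood above 61.1% and 43.8% of the controls on the parental arrays and above 88.2% and 89.9% on the OsTIR1 arrays. Its background-subtracted signal was -0.20 and -2.37 on the parental arrays and 1.26 and 0.56 on the OsTIR1 arrays. In the untreated OsTIR1 line 3 of 153 controls were brighter on that scale, and in IAA-treated OsTIR1 cells 12 were. Among probes dark on every array SOCS2 stood above 50.2% and 21.4% on the parental arrays and 55.5% and 52.5% on the OsTIR1 arrays, close to the middle on 3 of the arrays.

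The SOCS2 spot lies in a part of the array surface that was bright on the untreated parental array. With the surface divided into 16 parts, 124 of the 1055 probes there that were not marked on the remaining arrays (11.8%) were marked on that array. In the part that holds RAG1 the count was 0 of 1049, which allows a share of up to 0.286%, and in the part that holds TLR4 it was 0 of 1085, which allows up to 0.276%. SOCS2 was not among these, and its local background was 19.5 intensity units on that array and 18.5, 17.0 and 18.0 on the others. Whether the bright part raised its signal was not tested.

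**Figure D1:**
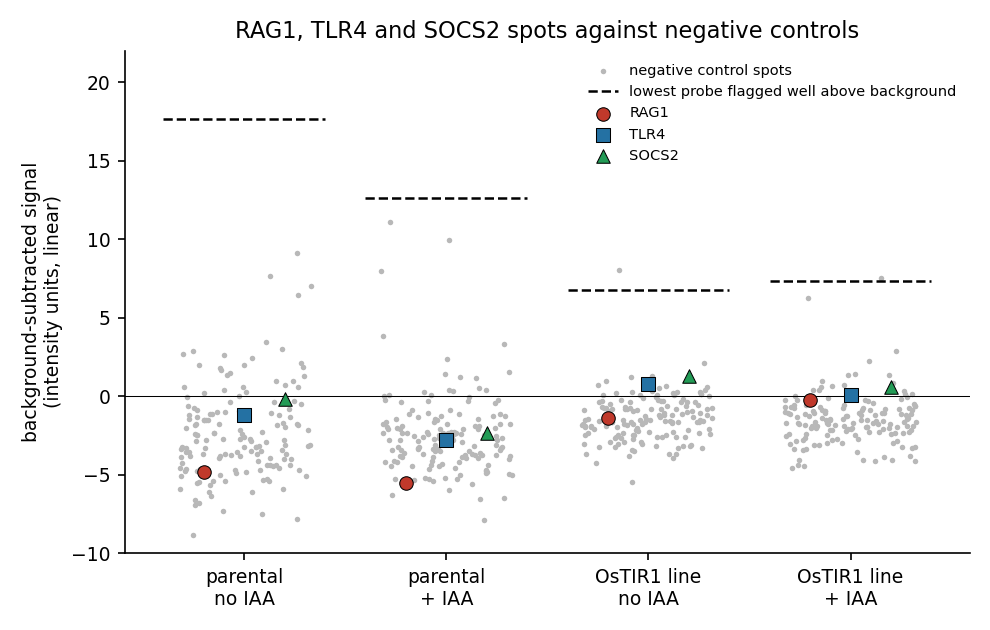
Background-subtracted signal in intensity units (vertical axis) on the 4 arrays, with RAG1, TLR4 and SOCS2 as coloured points, the 153 negative control spots of each array as grey dots, and the lowest signal of a probe marked well above background as a dashed line. The 3 genes lie among the control spots on every array and under the dashed line, and 2 control spots of the untreated parental array and 1 of the treated one lie above the plotted range.

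The gap to detection was several intensity units on each array. The lowest background-subtracted signal marked well above background was 17.6 in untreated parental DT40, 12.6 in parental cells given IAA, 6.75 in the untreated OsTIR1 line and 7.33 in the IAA-treated OsTIR1 line. RAG1 fell short of it by 22.5 and 18.1 units on the parental arrays and by 8.14 and 7.55 on the OsTIR1 arrays. TLR4 fell short by 18.8 and 15.4 units and by 6.00 and 7.23 units. SOCS2 came nearest, 5.50 units short, in the untreated OsTIR1 line, where the threshold itself was lowest. Elsewhere SOCS2 was short by 17.8, 15.0 and 6.78 units.

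The processed signal, the value most users of such arrays would read, cannot be read as a level for these genes. RAG1 had processed signals of 4.17 and 2.83 intensity units on the parental arrays and 1.52 and 1.66 on the OsTIR1 arrays. TLR4 had 3.37 and 2.48 and then 1.28 and 1.41, and SOCS2 had 3.12 and 2.23 and then 1.22 and 1.32. All 3 genes appear brighter in parental cells on this scale, and so did the negative controls, with medians of 3.61 and 2.55 on the parental arrays and 1.34 and 1.46 on the OsTIR1 arrays.

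Each of these processed signals was within 1% of the error the software gives for the same spot, with ratios from 0.999 to 1.00. The same held for 98.8% to 100% of all non-control probes that were not significantly above background, depending on the array. The value deposited for such a spot thus tracked the array's error estimate, which was 3.53 and 2.52 units on the parental arrays and 1.35 and 1.47 on the OsTIR1 arrays. Relative to the control median, the processed signal of RAG1 was 1.11 to 1.16 times as large, that of TLR4 0.935 to 0.975 times and that of SOCS2 0.864 to 0.911 times. These ratios kept to a narrow range over the 4 arrays and did not follow the background-subtracted signal. RAG1 lay above the control median in processed signal and below it in background-subtracted signal in parental DT40, and SOCS2 showed the opposite on all 4 arrays.

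**Figure D2:**
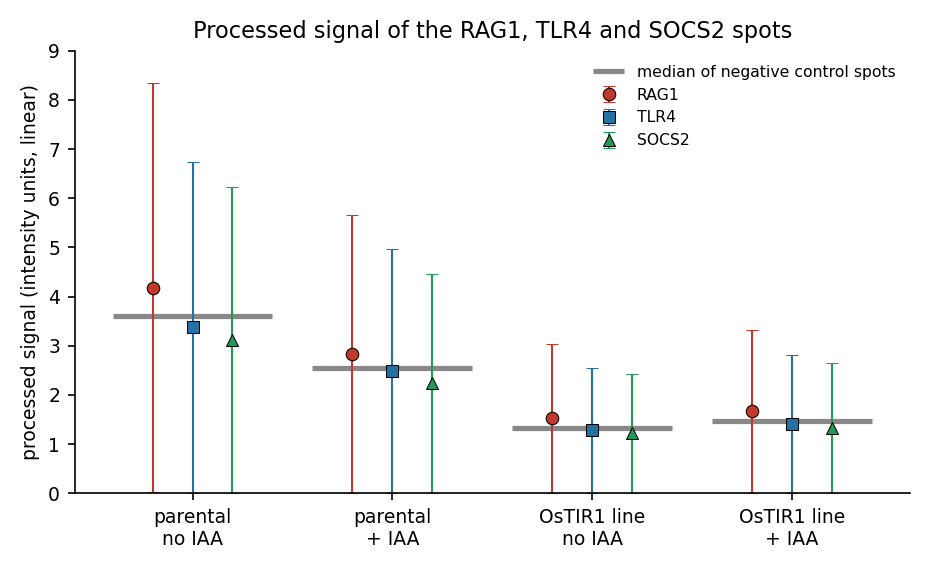
Processed signal in intensity units (vertical axis, linear) of RAG1, TLR4 and SOCS2 on the 4 arrays, with bars for the scanner software's error of each spot, which is no replicate spread, and grey lines for the median of the negative control spots. The points follow the control median, from 3.61 in untreated parental DT40 to 1.34 in the untreated OsTIR1 line, and each bar is as long as its value.

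What the arrays give for these genes is an upper bound. It was taken as the lowest processed signal that any probe marked well above background had on the array. All 12 spots lay under it, but their processed signals tracked the error estimate, so this does not justify the bound. Their background-subtracted signals also lay under the lowest marked one. Other unmarked probes had processed signals above the bound on every array, so a missing mark does not place a probe under it. The bound was 14.3 intensity units in untreated parental DT40, 10.4 in parental cells given IAA, 5.71 in the untreated OsTIR1 line and 6.12 in the IAA-treated OsTIR1 line, and it is the same for RAG1, TLR4 and SOCS2. On the log2 scale relative to the array's 75th percentile over all non-control probes, these bounds were -3.62, -4.01, -4.91 and -4.78. The bound itself lay 12.3-fold below the 75th percentile in untreated parental DT40 and 16.1-fold below it with IAA. On the untreated and treated OsTIR1 arrays it lay 30.0-fold and 27.5-fold below. These folds describe the marking limit of each array and are not measured levels of the genes. The size of the bound rests on how it is set: the highest signal not marked on each array, a rule added after the data were seen, gave -2.79, -3.19, -4.07 and -4.00 on the log2 scale. With normexp background correction the bounds were -1.76 on both parental arrays, -1.94 to -1.92 on the untreated OsTIR1 array and -1.89 on the treated one. That correction added an offset of 50 to every spot, so these bounds are not on the scale of the others.

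The bounds were higher on the parental arrays, whose control spots were brighter, and they say nothing of a difference between the cultures. A probe of poor binding would also be dark, and the probe sequences were not used here. In untreated parental DT40 50.5% of all probes had a processed signal above the bound, with IAA 52.1%, and in the OsTIR1 line 60.1% and 57.4%. Spiked-in control transcripts show where detection ends. The dimmest one that was marked on all 32 of its spots on every array had median levels from -2.24 to -2.15 on the log2 scale relative to the 75th percentile. The next one down had levels from -5.59 to -5.12 and was marked on 0, 1, 7 and 4 of its 32 spots in the order of the arrays above. The bounds for RAG1, TLR4 and SOCS2 lie between these spike-in levels. Most spots of the dimmer spike-in were not marked, so its levels may not be measured ones.

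**Figure D3:**
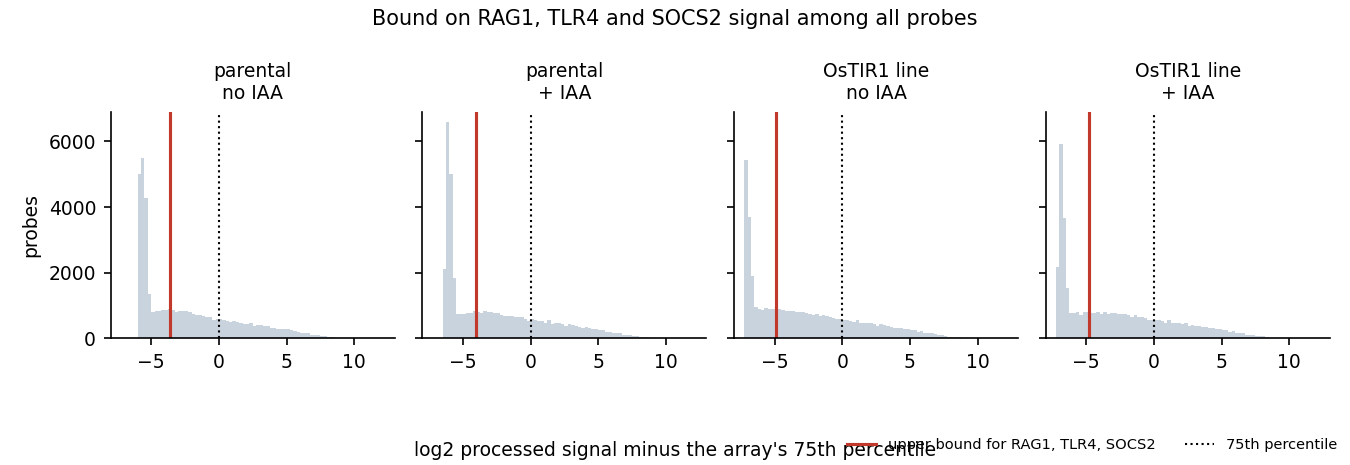
Number of non-control probes (vertical axis) by log2 processed signal minus the array's 75th percentile (horizontal axis), with 1 panel per array. The red line is the upper bound for RAG1, TLR4 and SOCS2, at -3.62, -4.01, -4.91 and -4.78 from left to right, and the tall peak of dim probes lies to the left of it on every array.

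Auxin brought none of the 3 genes above background in parental DT40. In all, 4.92% of probes were above background on only 1 of the parental arrays, and none of the 3 was among them. Spot signal relative to the control median was 0.5 lower with IAA for RAG1, 2.0 higher for TLR4 and 1.5 lower for SOCS2, in intensity units. The central 95% of the negative control spots, matched by position, ran from -10.5 to 9.2 for the same difference. In background-subtracted signal all 3 were lower with IAA, at -0.67 for RAG1, -1.61 for TLR4 and -2.17 for SOCS2, so the direction for TLR4 turned with the scale, and the control range ran from -9.78 to 7.47. No fold change is given, since none of the 3 was significantly above background on either array. The 19492 probes measured on both parental arrays include none of the 3 genes.

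Auxin brought none of them above background in the OsTIR1 line either, where 4.57% of probes were above background on only 1 of the arrays. RAG1 was 0.5 units higher with IAA, TLR4 1.5 higher and SOCS2 0.0, against a control range from -3.5 to 4.5. In background-subtracted signal the differences were 1.17 for RAG1, -0.65 for TLR4 and -0.70 for SOCS2, within a control range from -3.75 to 3.58, and TLR4 again turned direction with the scale. A difference from auxin was therefore not detectable for these genes at this background in either line, and a difference under the bounds would not be seen.

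Between the lines the 3 genes also stayed within the spread of the controls. Without IAA the OsTIR1 line was 0.5 units higher than parental DT40 for RAG1, 4.0 higher for TLR4 and 1.5 higher for SOCS2, in spot signal over the control median, and the control range ran from -11.1 to 6.1. With IAA it was 1.5, 3.5 and 3.0 higher, with a control range from -8.1 to 5.3. All 6 of these differences were positive and inside the control range. The median of the same difference over the negative controls was 0 without IAA and 0.5 with it. In background-subtracted signal the negative controls rose by a median of 1.18 units without IAA and 1.28 with it. RAG1 came closest to the edge of the control range, at 5.28 units with IAA against an upper limit of 6.45. None of the 12 differences lay outside the control range on either scale. Probes above background on only 1 array of the pair made up 12.0% of all without IAA and 7.29% with it, and none of the 3 genes was among them.

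**Figure D4:**
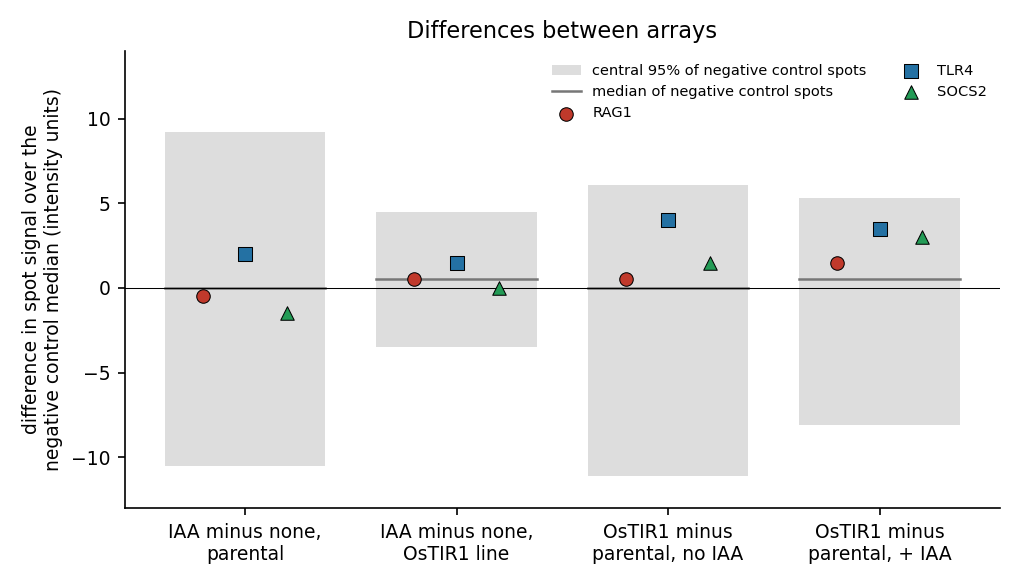
Difference between arrays in spot signal over the negative control median, in intensity units (vertical axis), for the 4 pairs of arrays that differ in IAA or in line alone. Grey boxes are the central 95% of the 153 control spots, grey lines their median, and the 12 coloured points of RAG1, TLR4 and SOCS2 all lie inside the boxes, between -1.5 and 4.0.

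The named genes nearest to RAG1, TLR4 and SOCS2 in spot signal were dark too, which a choice by likeness to dark spots makes likely. Likeness was measured over the 4 arrays as the root mean square difference of spot signal in SDs of the negative controls from their mean. For RAG1 the nearest were FGF4, a fibroblast growth factor gene, at 0.405 SD, MC2R, the receptor gene for the hormone ACTH, at 0.569 and BDKRB2, a bradykinin receptor gene, at 0.598. For TLR4 they were FGF4 at 0.498, IL13, a cytokine gene of helper T cells, at 0.682 and NPY4R, a neuropeptide receptor gene, at 0.741. For SOCS2 they were FGF4 at 0.293, IL13 at 0.365 and NPY4R at 0.661. All 5 of these genes were above background on 0 of the 4 arrays, so the likeness is one of spots not marked well above background. An unmarked spot can still hold some signal. IL13 had a background-subtracted signal of 4.23 in the untreated OsTIR1 line, above 99.3% of the negative controls.

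Partner genes could not be set beside the 3. Of 14 other genes of V(D)J recombination and DNA end joining, 24 of Toll-like receptor signalling and 19 of the SOCS family and JAK-STAT signalling, 0 have a probe with a RefSeq name here. The same held for 19 B cell markers, 7 T cell markers, 5 erythroid markers and the 7 macrophage markers other than TLR4. The B cell identity of DT40 was thus not checked against its markers.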

How the data were processed

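The authors labelled total RNA with Cy3 and deposited 4 scanner files of linear spot intensities. Per the file headers the software was Agilent Feature Extraction 10.5.1.1. The headers name galGal2 as the build of the array grid. The software subtracted background and detrended the surface. For nearly all probes not significantly above background, the deposited processed intensity was within 1% of the spot's error estimate, which is a comparison of the file's columns. Of 43451 spots, 42034 were non-control probes and 153 negative controls. The deposited series table held the same intensities times a median of 4.40, 4.63, 4.52 and 4.55, with column medians of 65.6, 58.8, 60.5 and 55.9 in the order of the groups. Its scale is thus linear and uncentred, and the reason for its factors is unknown.

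Symbols came from a RefSeq table of assembly GRCg7b, which matched 51 of 66 probes with a RefSeq mRNA accession. No coordinates were used. Positions among negative controls used the spot's median pixel signal, where the mean was planned. The files used here have no mean column. Levels are processed intensities in log2, less the 75th percentile of the same array, with no floor. limma 3.58.1 in R 4.3.3 gave the normexp alternative (offset 50), with Python 3.11.15 for the rest. The position measure was tested on simulated normal controls with known quantiles. The real controls have ties and a few very bright spots, which that test did not cover. Intervals cover counting error only. All 3 genes were to be named, with the 3 named genes nearest to each in spot signal, and any list gene with a named probe. The members and lists were chosen with earlier results of these data known.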

Additional observations from a re-analysis of the deposited data

Results flagged for a closer look

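RAG1 is listed because its spot signal over the negative control median moved in opposite directions with IAA, -0.5 intensity units in parental DT40 and 0.5 in the OsTIR1 line. The difference between the lines was not tested, and each line has 1 array per treatment. Both RAG1 values lie well inside the range of the control spots. In the OsTIR1 line the median of the same difference over control spots was also 0.5, so RAG1 did not move against the controls there.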

How the results depend on the processing

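RAG1, TLR4 and SOCS2 were detected on 0 arrays under the weaker scanner mark, with spot signal against the 95th and 99th percentiles of the negative controls, and with local background. With local background TLR4 lay at the cutoff in the IAA-treated OsTIR1 line, above 95.1% of the controls with tied spots counted at 0.5. In the untreated OsTIR1 line TLR4 and SOCS2 each stood above 93.5%. Background-subtracted signal against the 95th percentile, chosen after seeing the data, gave 1 array each for TLR4 and SOCS2 (the untreated OsTIR1 line) and 0 for RAG1. On that array the median dark probe, at 0.94, also exceeded that percentile, though some dark probes passed the weaker mark there. The highest position among controls over the 4 arrays was 65.7% for RAG1, 92.8% for TLR4 and 89.9% for SOCS2. In processed signal it was 79.7%, 44.4% and 20.3%, within the same section of the surface (of 4) 47.5%, 100% and 95.8%, and in background-subtracted signal 86.3%, 95.4% and 98.0%, the last added after seeing the data. The highest bound, -3.62 on the log2 scale, became -3.84 from the spot's own processed signal plus the 95% margin of its error. That processed signal itself tracked the error estimate, so this alternative reflects the error and no separate measure of the spot. The highest bound was -3.39 from the 99th percentile of the controls, -0.058 with median scaling and -1.76 with normexp. Median scaling changed only the reference, from the 75th percentile to the array's median. Normexp added an offset of 50 to every spot. These 2 values are thus not on the scale of the others. The series table gave -3.63. It holds the same intensities times a nearly constant factor per array, so this bound had to stay close and is no independent check. Bounds from the highest unmarked signal (-2.79) and the 1st percentile of marked signals (-3.35) were added after seeing the data. No paired analysis was possible because each group was 1 culture on 1 array. Low signal over background limits every value.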

Other observations

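The genes below were chosen after their values had been seen. TFEC, a transcription factor gene best known from mouse macrophages, was above background on both OsTIR1 arrays and on neither parental one. Its background-subtracted signal was 5.52 and 7.67 on the parental arrays and 8.91 and 7.34 on the OsTIR1 arrays. The lowest marked signal of any probe was 17.6 and 12.6 on the parental arrays and 6.75 and 7.33 on the OsTIR1 arrays. Of all probes, 12.0% were marked on only 1 array of the pair of lines without IAA, and 7.29% with it. The marks alone thus do not show a higher TFEC level in the OsTIR1 line. With IAA the TFEC value was lower on the OsTIR1 array, where TFEC was marked, than on the parental one, where it was not. IL13 reached 4.23 in the untreated OsTIR1 line, where 99.3% of the negative controls were dimmer, and was not marked. Among dark probes this was less extreme, as their 95th percentile on that array was 5.47.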
